A study of Mus musculus with 2 samples.

Results

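Expressed antisense genes were the 179 genes that GENCODE M21, a mouse gene annotation, types as antisense and that were selected on a level of at least 2 TPM (a level scaled by gene length and library size) in both libraries. They were 179 of 2005 annotated antisense genes in the tables (8.93%), out of 43346 Ensembl genes in all. Genes on the X and Y chromosomes, genes in the 4 Hox clusters and the imprinted antisense genes Nespas, Kcnq1ot1 and Airn were left out, which removed 9 of the 188 genes that passed the threshold. Because the TPM values chose these genes, their levels are a description and were not tested.

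The RNA came from limb of mouse embryos of strain B6NCrl at 12.5 days, from pools of both sexes. There was 1 group of 2 biological replicates and no treated, mutant or other stage beside it. Replicate 2 pooled limbs from 68 embryos and replicate 1 from 88 embryos. Forelimb and hindlimb are not told apart by the labels, each library started from 10 ng of total RNA above 200 nt, and in pooled bulk tissue fewer cells of a type and less RNA per cell cannot be told apart. Limb mesenchyme markers (Prrx1, Prrx2, Msx1 and Twist1) summed to 799 TPM in replicate 2 and 762 TPM in replicate 1, cartilage markers to 753 and 872 TPM, and liver markers to 5.08 and 7.56 TPM in the same order of libraries. Red cell markers summed to 8508 and 8535 TPM, muscle markers to 629 and 649 TPM, and ectoderm markers to 281 and 302 TPM. Endothelium markers summed to 151 and 153 TPM, macrophage markers to 76.2 and 84.1 TPM, and neuron markers to 45.9 and 41.3 TPM, with Elavl3 at 0.17 and 0.01 TPM. Heart markers summed to 5.45 TPM in replicate 2 and 8.03 TPM in replicate 1, with Nkx2-5 listed at 0 in both and Myl7, Tnni3 and Nppa detected. The expected counts summed to 29938721 in replicate 2 and 29810026 in replicate 1.

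An antisense RNA is read from the DNA strand opposite another gene. It may start beside that gene's own start and run the other way, meet it tail to tail at the 3' ends, or lie inside one of its introns, and some such RNAs serve as the precursor of microRNAs or small nucleolar RNAs. Known effects on the opposite gene range from none to silencing or activation, so a level alone says nothing of function. Of the 179 genes, 167 overlapped at least 1 protein-coding gene on the other strand and 12 overlapped none in the tables. For the 29 genes with more than 1 such neighbour, the partner was the one with the longest overlap of gene bodies. There were 165 distinct partners, since Dnm3os and 2810442N19Rik both lie opposite Dnm3, and 2810402E24Rik and 1810062O18Rik both lie opposite Usp54.

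Sequences are shown for 2 kinds of member. The first is Dnm3os, the host of the only microRNA genes that lie on the strand of an expressed antisense gene, Mir199a-2 (chr1:162217814-162217923, plus strand) and Mir214 (chr1:162223368-162223477, plus strand). Their mature microRNAs, from RefSeq on GRCm38.p6, are given 5' to 3' with the seed (bases 2 to 8, which pair with targets) in capitals. The 4 seeds all differ from each other.
mmu-miR-199a-5p: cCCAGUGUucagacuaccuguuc
mmu-miR-199a-3p: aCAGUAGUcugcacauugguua
mmu-miR-214-5p: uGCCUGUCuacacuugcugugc
mmu-miR-214-3p: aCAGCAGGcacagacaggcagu

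The second kind is the head-to-head pair, in which the antisense gene and its partner start close together on opposite strands. RefSeq promoter windows (250 bases before to 50 after the start site, GRCm38.p6) are given for the 2 such pairs with the highest antisense level, with each CG dinucleotide in capitals.
Tug1: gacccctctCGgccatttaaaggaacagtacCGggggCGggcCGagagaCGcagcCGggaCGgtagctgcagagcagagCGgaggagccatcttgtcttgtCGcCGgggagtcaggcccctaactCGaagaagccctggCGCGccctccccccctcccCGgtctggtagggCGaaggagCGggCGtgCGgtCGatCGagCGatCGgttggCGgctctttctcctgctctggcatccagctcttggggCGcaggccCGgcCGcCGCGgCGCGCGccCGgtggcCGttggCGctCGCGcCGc
Morc2a: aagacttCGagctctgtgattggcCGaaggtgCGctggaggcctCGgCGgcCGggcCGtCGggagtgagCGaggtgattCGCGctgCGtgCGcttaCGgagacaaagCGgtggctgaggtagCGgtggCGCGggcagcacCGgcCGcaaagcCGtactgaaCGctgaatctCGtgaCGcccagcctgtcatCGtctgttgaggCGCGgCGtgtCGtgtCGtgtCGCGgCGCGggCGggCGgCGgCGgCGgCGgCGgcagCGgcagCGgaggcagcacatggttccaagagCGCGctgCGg
1600020E01Rik: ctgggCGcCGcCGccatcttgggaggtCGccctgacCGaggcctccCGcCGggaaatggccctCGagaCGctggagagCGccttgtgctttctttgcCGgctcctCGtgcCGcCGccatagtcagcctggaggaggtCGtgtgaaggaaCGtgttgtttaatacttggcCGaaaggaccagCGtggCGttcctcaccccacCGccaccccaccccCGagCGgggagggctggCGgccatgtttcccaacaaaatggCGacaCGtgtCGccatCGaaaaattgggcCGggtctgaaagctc
Pcbp1: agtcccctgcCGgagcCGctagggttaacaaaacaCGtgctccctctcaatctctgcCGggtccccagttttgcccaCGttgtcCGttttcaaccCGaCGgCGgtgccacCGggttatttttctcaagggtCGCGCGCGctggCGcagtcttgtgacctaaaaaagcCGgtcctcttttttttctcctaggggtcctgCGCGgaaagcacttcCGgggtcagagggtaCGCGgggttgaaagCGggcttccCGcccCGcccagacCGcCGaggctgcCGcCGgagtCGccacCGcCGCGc
The Tug1 window is chr11:3648765-3649064 on the minus strand and the Morc2a window is chr11:3649187-3649486 on the plus strand. The 1600020E01Rik window is chr6:86527080-86527379 on the plus strand and the Pcbp1 window is chr6:86526140-86526439 on the minus strand. All were rich in CG, with 37 CG dinucleotides for Tug1, 46 for Morc2a, 28 for 1600020E01Rik and 32 for Pcbp1, where the median over 32851 RefSeq promoters was 7. Many CG were not particular to head-to-head pairs. The median was 16.5 over 78 promoters of antisense genes not head to head within 1000 nt, and 20.5 over 134 promoters of partners. The letters GGGCGG, searched on both strands and overlapping the CG count, were found for Tug1, Morc2a and Pcbp1 and in 35.7% of all promoters. They were also in 61.5% of those 78 antisense promoters and 60.5% of the 134 partner promoters. The letters CCAAT, on either strand, were found for Morc2a and 1600020E01Rik and in 37.4% of all promoters, while TATAAA (13.6% of all promoters) was found in none of the 4 windows. The annotations place the starts differently. In M21 the Tug1 and Morc2a gene bodies overlap by 483 nt, whereas the RefSeq start sites lie 623 nt apart and do not overlap. For 1600020E01Rik and Pcbp1 the M21 overlap is 75 nt and the RefSeq start sites lie 1141 nt apart. RefSeq held a promoter for 93 of the 179 antisense genes, too few for a statement on the promoters of the whole set.

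Most of the expressed antisense genes were present at low levels. Their median was 4.04 TPM (quartiles 2.93 and 7.54), against 25.1 TPM for the 11784 protein-coding genes that passed the same threshold. Of the 179, 34 averaged at least 10 TPM, 6 at least 50 TPM, and 51 less than 3 TPM. Their summed level was 1710 TPM in replicate 2 and 1702 TPM in replicate 1, and the 2 highest genes held 16.5% of it in replicate 2 and 17.8% in replicate 1. Depth limits the lower end: 30 of them had fewer than 30 counts in a library. Just inside the threshold were Gm10501 (2.00 TPM in replicate 2 and 2.11 TPM in replicate 1), Gm16984 (2.04 and 2.70 TPM) and Arf4os (2.04 and 2.29 TPM). Just outside it were C330011M18Rik (2.15 and 1.98 TPM), Gm28192 (2.34 and 1.97 TPM) and Gm16172 (2.38 and 1.97 TPM), so genes next to the limit hardly differ in level.

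Tug1 (chr11:3639785-3649673, minus strand, mm10) was the highest, at 150.1 TPM in replicate 2 and 158 TPM in replicate 1. It is a conserved long noncoding RNA first described in the developing mouse retina. Its partner Morc2a, an ATPase that takes part in gene silencing, averaged 51.03 ± 1.46 TPM (SD, n = 2). Tug1 thus exceeded Morc2a in both libraries, by 1.59 ± 0.01 on the log2 scale (mean ± SD over the 2 libraries, computed on TPM plus 0.1, as are all ratios here). The pair shares 483 nt of exon, 5.80% of the exon bases of Tug1.

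Dnm3os (chr1:162217623-162225550, plus strand) had 133 TPM in replicate 2 and 145 TPM in replicate 1. It carries the microRNAs miR-199a and miR-214 shown above, and its loss in mice is known to impair skeletal growth. It lies wholly within Dnm3, which encodes a dynamin GTPase and had 15.8 TPM in replicate 2 and 17.6 TPM in replicate 1. Dnm3os was above Dnm3 by 3.05 ± 0.02 on the log2 scale. It shares no exon base with Dnm3, its counts were whole numbers (19532 in replicate 2 and 21205 in replicate 1), and so no read was divided between the pair, but reads of unspliced Dnm3 RNA that cross it cannot be told apart without strand. The second antisense gene opposite Dnm3, 2810442N19Rik, lay below it, with 12.6 TPM in replicate 2 and 10.3 TPM in replicate 1.

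Nr6a1os lies within Nr6a1, the gene of a nuclear receptor that acts in trunk and germ cell development. The antisense gene had 51.2 TPM in replicate 2 and 43.4 TPM in replicate 1, and Nr6a1 had 0.70 and 0.65 TPM in the same libraries. The ratio of 5.93 ± 0.10 on the log2 scale was the third highest of the 167 pairs, and the pair shares no exon base, with the same limit for unspliced Nr6a1 RNA. Nr6a1os stayed above Nr6a1 at a smaller ratio on counts (2.62 on the log2 scale), while the posterior mean TPM gave 4.66 and a pseudocount of 1 gave 4.84. Gt(ROSA)26Sor, the transcript of the ROSA26 locus that is widely used to place transgenes because it is active in most cells, had 55.2 TPM in replicate 2 and 61.4 TPM in replicate 1. Its tail-to-tail partner Thumpd3 had 39.5 and 33.2 TPM in those libraries. The ratio was 0.68 ± 0.28 on the log2 scale, above 0 in both libraries, though in replicate 2 per length only. On counts Gt(ROSA)26Sor had 1083.78 against 1089.22 for Thumpd3 in replicate 2, and 1191.52 against 1016.67 in replicate 1. The pair shares 145 nt of exon, and these counts were not whole.

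The other genes among the 10 highest differed widely in how they stood to their partners. Gm11175 had 75.7 TPM in replicate 2 and 74.6 TPM in replicate 1, against 46.9 and 47.1 TPM for Jund, which encodes an AP-1 transcription factor. All 543 nt of its exon lie inside exons of Jund, and its counts (634 in replicate 2 and 620 in replicate 1) were below those of Jund (2456 and 2454), so its place above Jund holds per length only. Gm37401, with 93.4% of its exon bases inside exons of its partner, had 77.3 TPM in replicate 2 and 61.9 TPM in replicate 1, and that partner, the small GTPase gene Rhoa, had 325 and 266 TPM. Both genes of that pair were higher in replicate 2. Their counts were not whole, 361.81 and 12801.27 in replicate 2 and 287.57 and 10403.22 in replicate 1. How far the level of Gm37401 depends on divided reads was not tested. 1600020E01Rik had 41.4 TPM in replicate 2 and 47.9 TPM in replicate 1, far below Pcbp1, an RNA-binding protein gene at 491 and 450 TPM. E130307A14Rik had 38.9 TPM in replicate 2 and 38.03 TPM in replicate 1, above Traf3ip2, a gene of interleukin-17 signalling at 5.16 and 4.08 TPM. C130021I20Rik (54.6 TPM in replicate 2 and 64.5 TPM in replicate 1) overlaps no protein-coding gene of the tables on the other strand.

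Across the 167 pairs the antisense gene was mostly the lower one. It was below its partner in both libraries in 138 pairs and above it in both in 28, and the sign differed between the libraries in 1 pair, Gm37335 and Hs6st1. The median log2 ratio was -2.59, which is 6.02-fold below the partner, with medians of -2.47 in replicate 2 and -2.62 in replicate 1. The difference was at least 2-fold in both libraries in 114 pairs below and in 22 pairs above the partner. The spread between libraries was small beside these ratios, with a median SD of 0.17 on the log2 scale. Pairs were not tested, since the smallest p that an exact sign-flip test over 2 libraries can give is 0.5. Antisense genes below the TPM threshold had a median ratio of -4.45 over 1644 pairs, a difference that the threshold itself fixes in part. Over the 62 pairs left by a threshold of 5 TPM the median was -0.97, and on counts without length scaling it was -3.92 over the 167 pairs.

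**Figure D1:**
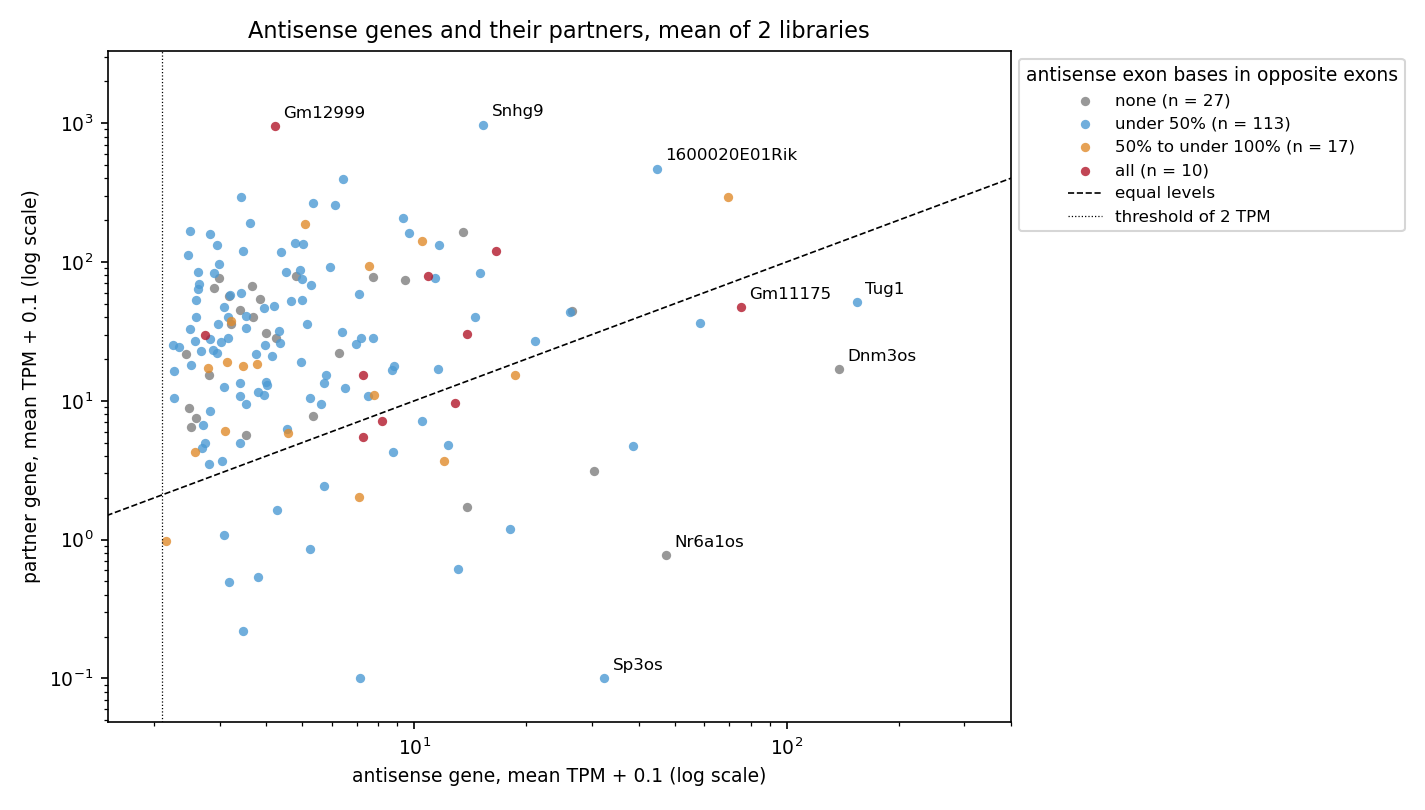
Mean TPM plus 0.1 of each expressed antisense gene (x axis, log scale) against that of its partner (y axis, log scale), 1 point for each of the 167 pairs, coloured by the share of antisense exon bases that lie in exons of the opposite strand. Points above the dashed line are pairs with the partner higher; Tug1, Dnm3os, Nr6a1os, Sp3os and Gm11175 lie below it.

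The 6 highest ratios included partners that were close to silent in the limb. Sp3os had 31.9 TPM in replicate 2 and 32.6 TPM in replicate 1, and Gm11084, the gene it overlaps over the longest stretch, was listed at 0 in both. It also overlaps Sp3, the gene of a widely expressed zinc finger transcription factor, which had 63.1 TPM in replicate 2 and 66.9 TPM in replicate 1, so that against this second neighbour Sp3os was the lower gene. 4933431E20Rik, at 6.53 TPM in replicate 2 and 7.51 TPM in replicate 1, likewise lies opposite a gene listed at 0, Eps8l3, and opposite the glutathione transferase gene Gstm5 at 183 and 179 TPM. Tmem147os had 12.2 TPM in replicate 2 and 13.7 TPM in replicate 1, against 0.60 and 0.42 TPM for Gapdhs, which encodes a sperm form of a glycolytic enzyme. The counts of Tmem147os (267.06 in replicate 2 and 301.4 in replicate 1) were not whole numbers, while those of Gapdhs (10 and 6) were. Their sums were not whole either, so the fractions did not balance within this pair. 2900009J06Rik (3.30 TPM in replicate 2 and 3.42 TPM in replicate 1) lay opposite Acmsd, a gene of tryptophan breakdown at 0.11 and 0.13 TPM. Trmt61b carries the symbol of a tRNA methyltransferase gene yet is typed as antisense in M21, and it had 18.9 TPM in replicate 2 and 16.9 TPM in replicate 1, against 1.08 and 1.12 TPM for the cell cycle gene Spdya. The sixth gene of this group was Nr6a1os, and the partners of all 6 by longest overlap had low levels.

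The 6 lowest ratios were those of pairs with highly expressed partners, which the threshold of 2 TPM on the antisense gene fixes in part. Gm12999 had 3.44 TPM in replicate 2 and 4.78 TPM in replicate 1, opposite Atpif1, the gene of a mitochondrial ATP synthase inhibitor, at 960 and 947 TPM. Its log2 ratio of -7.84 ± 0.34 was the lowest of all pairs, and its exons lie wholly inside exons of Atpif1. Snhg9, which holds the small nucleolar RNA gene Snora78, had 11.99 TPM in replicate 2 and 18.4 TPM in replicate 1 from 19 and 29 counts, opposite the ribosomal protein gene Rps2 at 979 and 966 TPM. Its exons span only 183 nt, and effective lengths in the tables were 99 nt shorter than the annotated length, so few counts carry a high TPM there. Gm10138 (log2 ratio -6.43 ± 0.04) lies opposite Ivns1abp, Gm17638 (-6.07 ± 0.06) opposite the translation factor gene Eif3d, 4930539J05Rik (-5.95 ± 0.22) opposite the ubiquitin-conjugating enzyme gene Ube2d3, and Gm11739 (-5.82 ± 0.10) opposite Prpsap1. These antisense genes all averaged between 2.39 and 15.2 TPM. The other host of a small nucleolar RNA gene was Rab26os, which holds Snord60 and had 28.2 TPM in replicate 2 and 32.3 TPM in replicate 1, above Rab26, a small GTPase gene of vesicle transport at 3.37 and 2.62 TPM.

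By position, 46 pairs were head to head, 56 tail to tail, 59 had the antisense gene inside its partner and 6 had the partner inside the antisense gene. Tail-to-tail pairs made up 33.5% of the pairs, against 14.4% for antisense genes below the threshold, and antisense genes inside their partner 35.3%, against 59.3%. Head-to-head pairs were 27.5%, against 22.8%. In 30 of the 46 head-to-head pairs the starts lay within 1000 nt, with a median distance of 744 nt over the 46. The median log2 ratio was -1.98 for head-to-head pairs, -2.80 for tail-to-tail pairs, -2.69 for antisense genes inside the partner and -2.06 for the 6 of the reverse kind, and in each class the ratios ranged from below -4 to above 4. The classes thus overlap widely, and the annotation behind them does not measure where transcription starts in these limbs.

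The 3 head-to-head pairs next in level after Tug1 and 1600020E01Rik, with starts within 1000 nt, showed both directions. 2510046G10Rik had 15.02 TPM in replicate 2 and 13.8 TPM in replicate 1, below Sgf29, a subunit gene of histone acetyltransferase complexes, at 39.2 and 40.9 TPM. Gm16136 had 11.3 TPM in replicate 2 and 13.0 TPM in replicate 1, above the epithelial transcription factor gene Grhl2 at 4.21 and 5.19 TPM. Gm16070 had 7.98 TPM in replicate 2 and 7.25 TPM in replicate 1, below Crispld1 at 27.1 and 29.5 TPM. Of these, Gm16136 alone stood above its partner, and only per length, since on counts it was the lower one (log2 ratio -0.79).

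**Figure D2:**
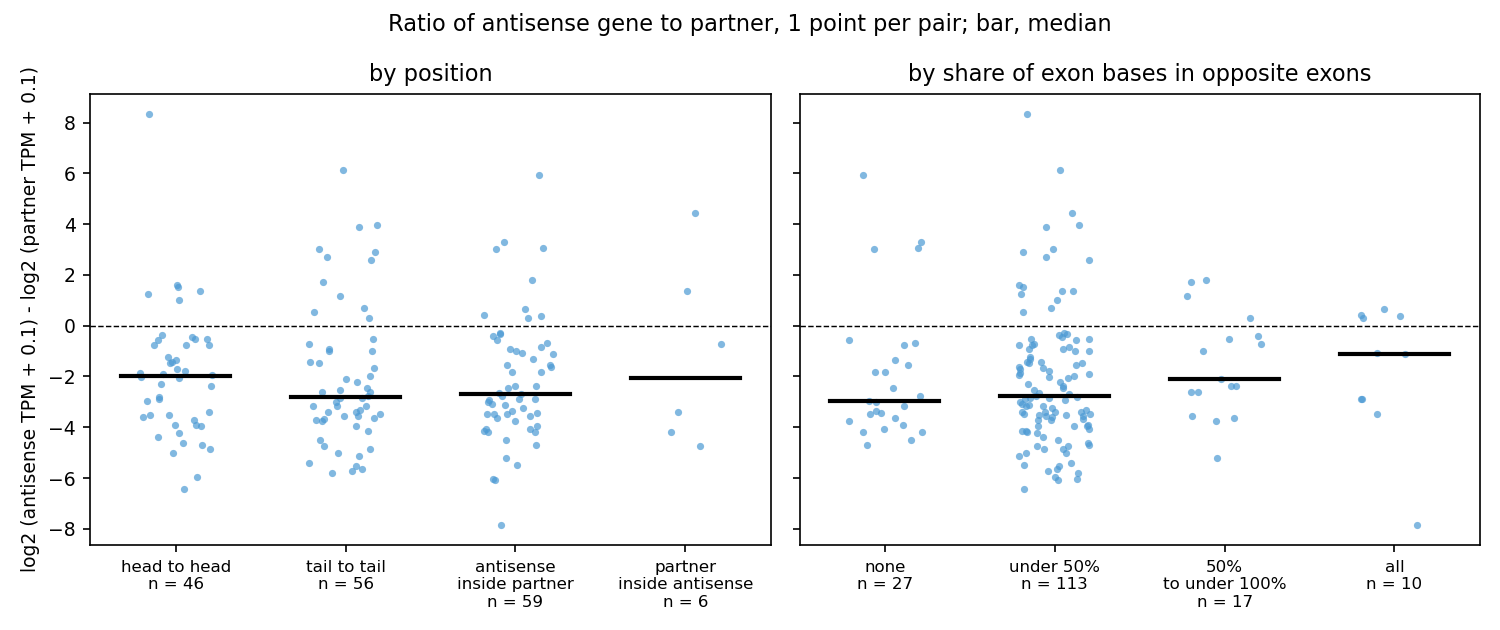
Log2 ratio of antisense gene over partner (mean of both libraries, TPM plus 0.1) for each pair, by position of the genes on the left and by the share of antisense exon bases in exons of the opposite strand on the right, with the median as a bar. Medians run between -2.80 and -1.98 by position, and the 10 genes wholly inside opposite exons have a median of -1.11.

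The partners of the expressed antisense genes were themselves mostly expressed. Of 165 partners, 151 (91.5%) reached 2 TPM in both libraries, against 62.8% of the 1466 partners of antisense genes below the threshold and 54.9% of all protein-coding genes. Their median over pairs was 27.0 TPM, against 6.88 TPM for partners of the antisense genes below the threshold and 4.32 TPM for all protein-coding genes. Reads in shared exons may be divided between the genes of a pair, so the partner's level may bear on which antisense genes passed the threshold. How far it does was not tested, and these shares and medians are a description. Across the 167 pairs Pearson's r of the log2 levels was 0.001 and Spearman's rho 0.053, given as a description over genes of the same 2 libraries. By share of exon bases in opposite exons, r was -0.296 with none (27 pairs), -0.013 with under 50% (113), 0.483 with 50% to under 100% (17) and -0.045 with all (10), and rho was -0.009, 0.022, 0.336 and 0.236 for the same classes. The between-library differences of antisense gene and partner had an r of 0.045 and a rho of 0.006 over the same pairs, with r of -0.007, 0.053, -0.363 and 0.499 by class.

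Limb patterning rests on transcription factors and signals of the mesenchyme and its ectoderm, and a list of 166 genes, mostly of these kinds, was read against the pairs. The list also holds Dnm3, a dynamin gene. Of these, 42 had an annotated antisense gene, and 15 of the 58 antisense genes opposite them were among the expressed ones (25.9%, against 9.22% of the 1811 antisense genes with any partner). The 15 lay opposite 14 listed genes, and 2 of them, Dnm3os and Nr6a1os, were above the partner in both libraries; the others were below it in both. Without Dnm3 the list gave 13 expressed antisense genes of 55 (23.6%), of which 1, Nr6a1os, was above its partner. Exon bases were shared with the partner by 8 of the 15. The list was made with earlier results of these data known, and partners that are expressed in limb are more common among antisense genes that passed the threshold, so the share is a description.

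Among mesenchymal regulators, Gm20471 had 15.8 TPM in replicate 2 and 11.04 TPM in replicate 1, opposite Prrx1, a homeobox gene of limb mesenchyme, at 163 and 168 TPM. Gm2670 had 10.6 TPM in replicate 2 and 8.60 TPM in replicate 1, opposite Wnt5a, whose product directs limb outgrowth, at 168 and 156 TPM. 2700069I18Rik came closest of these to its partner, with 24.3 TPM in replicate 2 and 28.5 TPM in replicate 1, against 42.4 and 45.8 TPM for the zinc finger homeobox gene Zfhx4. Tbx3os1 starts head to head with Tbx3, a T-box gene that patterns the digits, and had 9.18 TPM in replicate 2 and 5.02 TPM in replicate 1, against 30.1 and 26.5 TPM for Tbx3. In these 4 pairs the antisense gene was the lower one in both libraries.

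Emx2os and Emx2, a homeobox gene needed for the shoulder girdle, start head to head and share 264 nt of exon. Emx2os had 3.14 TPM in replicate 2 and 4.71 TPM in replicate 1, and Emx2 had 10.2 and 15.6 TPM. Both were lower in replicate 2 by a similar factor, and the ratio stayed at -1.69 ± 0.03 on the log2 scale. Of the rest of the list, Gm12158 (opposite the transcription factor gene Ebf1), Gm16141 (opposite Meis1, a homeobox gene of the proximal limb), Gm16104 (opposite Nfic), A830082K12Rik (opposite the nuclear receptor gene Nr2f1), Gm26688 (opposite Tfap2a, an ectodermal transcription factor gene), Gm29100 (opposite Twist2) and Gm15524 (opposite the paired box gene Pax9) had log2 ratios between -3.95 and -0.54. A830082K12Rik was the nearest of these 7 to its partner, at 3.14 TPM in replicate 2 and 3.47 TPM in replicate 1, against 4.40 and 5.30 TPM for Nr2f1. Gm29100 was the furthest, at 2.46 and 2.51 TPM, against 38.2 and 41.5 TPM for Twist2.

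**Figure D3:**
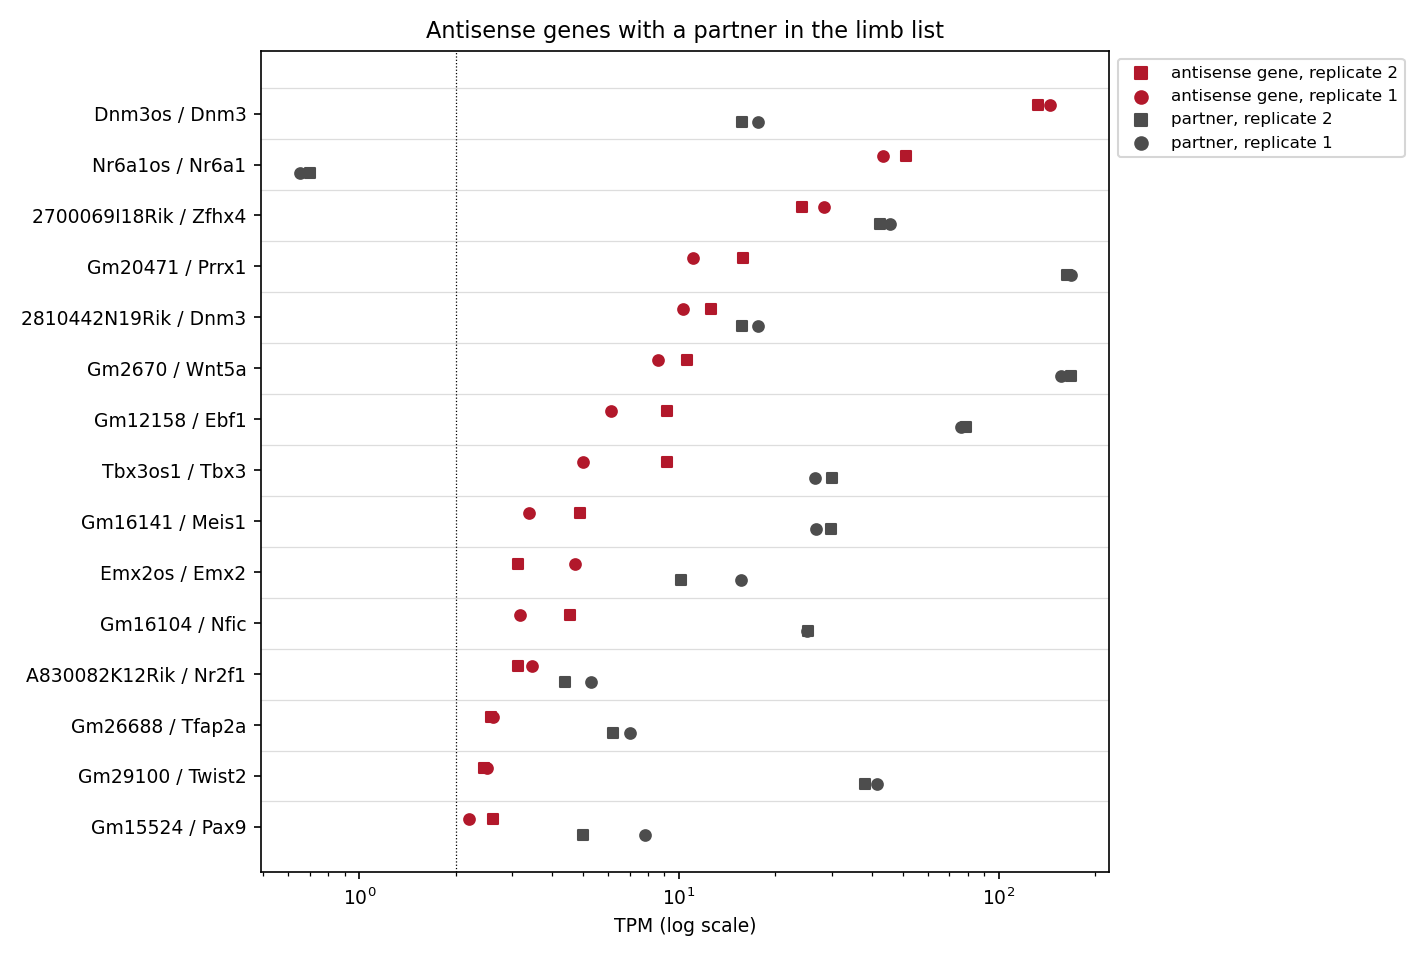
TPM (log scale) of the 15 expressed antisense genes whose partner is in the limb list, which includes Dnm3, with the antisense gene above its partner in each row and 1 point per library. Only Dnm3os and Nr6a1os lie to the right of their partners.

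How reads were assigned bears on all of these pairs, because no source used here states the strand setting of the quantification. One linked protocol is the manual of a SMARTer low-input kit, a type that does not keep strand, though the labels do not say that it was used. Reads from a gene and from its antisense partner cannot be told apart without strand, in shared exons and, for total RNA, also where unspliced partner RNA crosses an antisense gene in its intron. An expected count is whole when every read was given to 1 gene and may be fractional when reads were divided. Counts further than 0.01 from a whole number in at least 1 library were found for 110 of the 140 expressed antisense genes that share exon bases with a protein-coding gene on the other strand (78.6%), and for 2 of the 39 that share none (5.13%), Gm26873 and Fbxl12os. Of these 2, Fbxl12os shares 1251 exon bases with other overlapping genes of any type or strand, and Gm26873 shares none. Counts were not whole for 83 of 113 genes where under 50% of the exon bases were shared, 17 of 17 from 50% to under 100%, and 10 of 10 where all were shared. Antisense genes below the threshold with at least 10 counts in each library showed 168 of 198 with and 3 of 75 without shared bases, and 25.8% of the 14218 protein-coding genes with at least 10 counts in each library had a count that was not whole.

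The fractions of antisense gene and partner often completed each other. Among 111 pairs with an antisense count that was not whole, the partner's count was not whole either in 103, and in 69 the counts of antisense gene and partner added up to a whole number in both libraries (within 0.02). All 69 share exon bases. They include Arf4os and Dennd6a, where the counts of Dennd6a were whole and that of Arf4os was 20.02 in replicate 1. That sum passes only through its wider tolerance. Gm16070 and Crispld1 had 644.18 and 1651.82 counts in replicate 2, which sum to 2296, and 567.06 and 1636.94 counts in replicate 1, which sum to 2204. Emx2os and Emx2 had 291.88 and 386.12 counts in replicate 2 and 434.61 and 599.39 counts in replicate 1, which sum to 678 and 1034. Tbx3os1 and Tbx3 summed to 2702 in replicate 2 and 2398 in replicate 1 in the same way. Apart from Arf4os and Dennd6a, the fractional parts of the counts thus balanced between genes on opposite strands in these pairs. How much of an antisense level of this kind belongs to its own strand was not tested. This check of sums was chosen after the counts were seen.

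**Figure D4:**
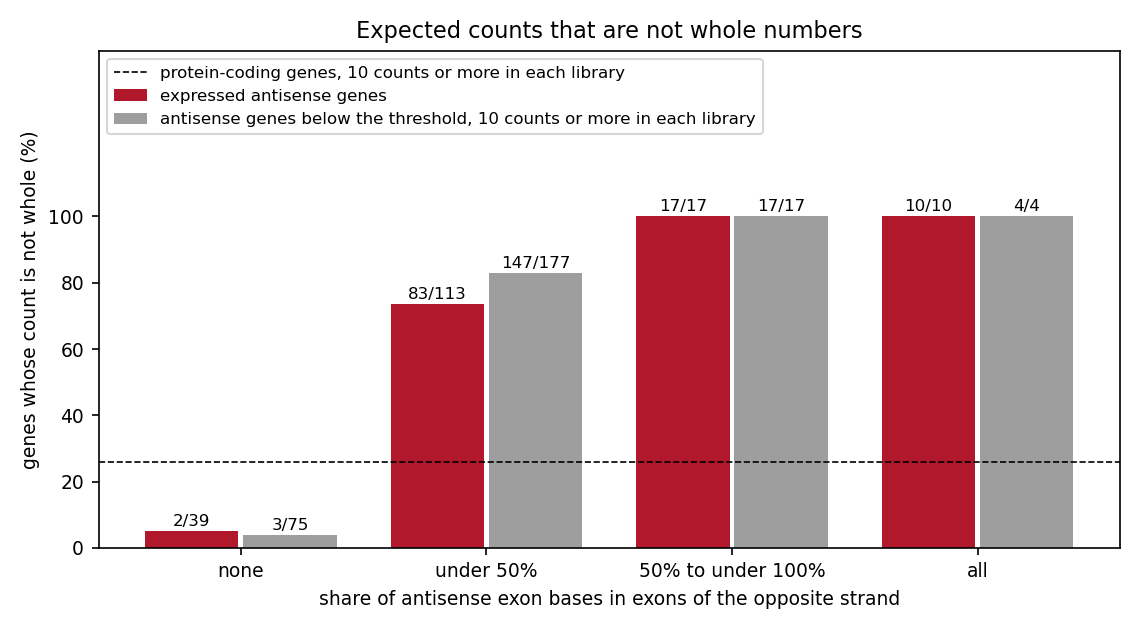
Percent of antisense genes whose expected count is not a whole number in at least 1 library, by the share of their exon bases that lies in exons of the opposite strand; numbers over the bars are genes not whole of all genes in the class. The expressed antisense genes go from 2 of 39 with no shared bases to 10 of 10 with all bases shared, and the dashed line marks 25.8% of the protein-coding genes with at least 10 counts in each library.

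Ratios to the partner also differed between these classes. The median log2 ratio was -2.96 over 27 pairs with no shared exon bases, -2.76 over 113 pairs with under 50% shared, -2.09 over 17 pairs with 50% to under 100% and -1.11 over the 10 pairs with all bases shared. These shares count exons of every overlapping opposite gene. Over the 34 pairs with no exon overlap with the partner itself the median was -2.33. These 34 hold the 27 pairs and others that share exon bases with another opposite gene, such as Sp3os. Whether the ratio follows the amount shared was not tested. The posterior SD of the count, as deposited, had a median of 0% of the count where no bases were shared and of 8.86% where all were. Sharing was common in the set: 78.2% of the 179 shared exon bases, against 53.4% of antisense genes below the threshold, and 13.4% had a single exon, against 4.65%. The highest ratios of genes with no shared base were those of Nr6a1os (5.93), Rab26os (3.30) and Dnm3os (3.05), and 4 of the 27 such pairs had the antisense gene above the partner in both libraries.

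The highest antisense genes kept 1 leading transcript in both libraries. Of the 179 genes, 97 had 1 transcript and 82 had 2 or more, and the leading transcript was the same in both libraries for 73 of the 82. The leading transcript of Tug1 held 73.5% of the gene in replicate 2 and 65.8% in replicate 1, that of Dnm3os 66.9% and 71.5%, and that of Gt(ROSA)26Sor 90.6% and 90.1%. E130307A14Rik had the most transcripts, 13, and its leading one held 39.7% in replicate 2 and 39.1% in replicate 1. The leading transcript differed between libraries for 9 genes.

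The replicates were set against each other with an exact binomial test on each gene, which covers counting error only and compares these 2 libraries, not conditions, with Benjamini-Hochberg adjustment over all 18580 genes with at least 10 counts. Of the 179 antisense genes 1 passed an adjusted p of 0.05 with a fold of at least 2 (0.559%), where 1.67% of all genes did, 0.931% as higher in replicate 2 and 0.743% as higher in replicate 1. The threshold limits how far these genes can fall in either library, and their counts were low (median 92 in replicate 2 and 84.05 in replicate 1). Both limit what the test can call, so the low share is not a result about them. The gene was Gm12953, with 2.24 TPM in replicate 2 and 5.13 TPM in replicate 1 from 28 and 63 counts (fold 0.44, 95% exact interval 0.27 to 0.69, exact binomial adjusted p 0.00308), while its partner Tmem69 had 19.8 and 16.8 TPM. Gm12953 shares 657 nt of exon with Tmem69, and its fractional counts and those of Tmem69 sum to 369 in replicate 2 and 397 in replicate 1. How far the call depends on divided reads was not tested. In edgeR's exact test the dispersion was estimated over both libraries and so includes the difference under test. That test therefore cannot decide on the call of Gm12953. In the binomial test 36 of the 179 had an unadjusted p under 0.05, where 66 of 162 partners and 4957 of all 18580 genes tested did. Of the partners 1 passed, Hs6st1, a heparan sulfate sulfotransferase gene with 10.1 TPM in replicate 2 and 4.01 TPM in replicate 1 (exact binomial adjusted p 3e-39). Its antisense gene Gm37335 lies wholly inside Hs6st1 exons and had 9.33 TPM in replicate 2 and 6.87 TPM in replicate 1, so the order of the pair turned between the libraries per length only. On counts Gm37335 was below Hs6st1 in both, with 61.24 against 689.76 in replicate 2 and 44.77 against 270.23 in replicate 1, and these counts too sum to whole numbers. With no fold limit, 19 antisense genes (10.6%) and 43 partners (26.5%) passed, against 16% of all genes. Dnm3os (fold 0.91 of replicate 2 over replicate 1), Tug1 (0.95) and Emx2os (0.66) were among the 19. The median log2 of replicate 2 over replicate 1 was 0.04 for the antisense genes, -0.01 for the partners and 0.01 for all genes tested. Without regard to sign, the median difference was 0.20 for the antisense genes, 0.10 for the partners and 0.13 for all genes tested. By this measure the antisense genes differed more between the libraries.

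**Figure D5:**
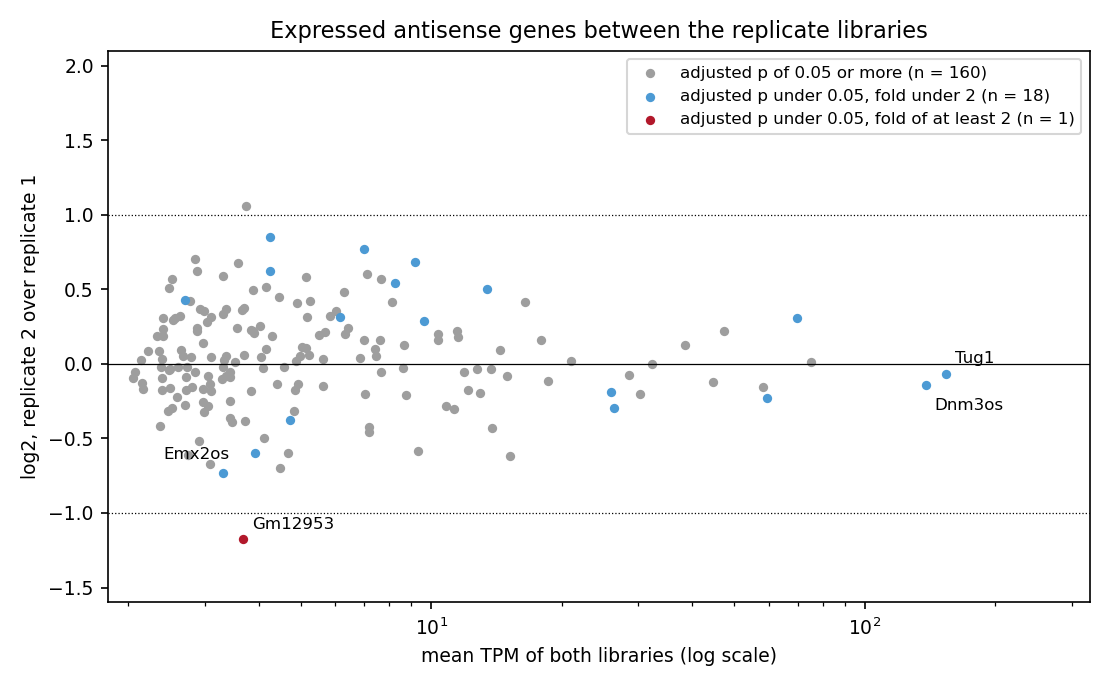
Log2 of replicate 2 over replicate 1 (y axis, from counts scaled to library size) against the mean TPM of both libraries (x axis, log scale) for the 179 expressed antisense genes, coloured by the exact binomial test with adjustment over all genes. Gm12953 is the only point past an adjusted p of 0.05 with a fold of at least 2, 18 more pass the adjusted p alone, and dotted lines mark a 2-fold difference.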

How the data were processed

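The deposited files are gene and transcript tables, 1 of each per library. The deposited expected counts are estimated counts that need not be whole. The deposited TPM and FPKM values are scaled by effective length and library, per the file headers, and the deposited percent values give each transcript's share of its gene. The deposited posterior SD of a count was used as a score of uncertainty. Text files deposited beside the tables name mm10 as assembly and GENCODE M4 as annotation. Not given in the sources used here are the quantifier, the aligner and whether strand was used.

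Gene types, positions and names came from GENCODE M21 by identifier without version (42462 of 43346 Ensembl genes matched). Exons were those of M21 transcripts present in the tables. Members and lists were chosen with earlier results of these data known. Named genes were the 10 highest, the 6 highest and 6 lowest ratios, genes called between libraries, the 5 highest head-to-head pairs with starts within 1000 nt, those opposite listed limb regulators, hosts of small RNAs, and the 3 on either side of the threshold; Hs6st1 and Gm12953 were the calls. Genes named only for fractional counts or for sharing a partner were chosen after their values were seen.

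With 1 group and 2 libraries, edgeR's quasi-likelihood test has no residual degrees of freedom. Rounded counts of the libraries were compared by an exact conditional binomial test (SciPy 1.17.1), tested on simulated data, where all 100 genes changed 4-fold and all 100 changed 3-fold were called among 18566 tested, with 11 other calls. The simulation held counting error only, and its changed genes were drawn from those above a minimum count. Recovery at low counts, or with the spread of the real libraries, was not tested. The libraries differed by more than counting error (chi-square 6.61 per degree of freedom, 16488 genes) and were kept as 2 replicates, which the labels call biological. Intervals cover counting error only. Alternatives used edgeR 4.0.16 (TMM, exact test), DESeq2 1.42.0 (size factors), other pseudocounts, thresholds, units and partners. Python 3.11.15, pandas 2.3.3, numpy 2.4.6, matplotlib 3.10.9 and R 4.3.3 were used.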

Additional observations from a re-analysis of the deposited data

How the results depend on the processing

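The number of expressed antisense genes was 314 at a threshold of 1 TPM, 65 at 5 TPM, 108 with 2 FPKM and 191 with the posterior mean TPM, and lay between 192 and 222 when 1 library was left out. The median log2 ratio to the partner was -2.30 with a pseudocount of 1, -3.92 on counts without length scaling, -2.90 against the highest overlapping gene, -2.33 over the 34 pairs with no exon overlap with the partner, -3.24 at a threshold of 1 TPM and -0.97 at 5 TPM, and lay between -2.62 and -2.47 when 1 library was left out. The pairs with the antisense gene above numbered 21 of 167 on counts, 23 against the highest overlapping gene, 8 of the 34 without exon overlap, and 28 to 29 when 1 library was left out. Of 41 named pairs, 3 changed sign on counts, Gm11175 over Jund (-1.97), Gm16136 over Grhl2 (-0.79) and Gm37335 over Hs6st1 (-3.02), and the last also between single libraries (-0.12 without replicate 1 and 0.76 without replicate 2); no other named pair changed sign under the pseudocounts, the posterior mean or the omission of a library.

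Between libraries, 74 genes and 0 antisense genes were called at 100 counts or more, 2972 and 19 with no fold limit, and 159 and 0 by edgeR's exact test with the dispersion estimated over both libraries. The antisense median of replicate 2 over replicate 1 was 0.033 with a pseudocount of 1. No paired analysis was possible because there is 1 group and nothing to pair. Genes with fewer than 30 counts limit what low members can show.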
